A study of Homo sapiens with 18 samples.

Results

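The colony stimulating factor genes CSF1, CSF2 and CSF3 were followed across all 18 bulk RNA libraries of IMR90 ER:RAS cells. They were chosen by symbol and are 3 of the 28266 gene rows of the deposited count table. The study asked how blocking the N-myristoyltransferases (NMTs), which attach the fatty acid myristate to proteins, alters RNA levels in senescent and non-senescent cells. IMR90 is a long-established human line of lung fibroblasts, labelled WT in every library. All libraries carry ER:RAS, in which oncogenic RAS is joined to the ligand-binding part of the oestrogen receptor and is switched on by 4-hydroxytamoxifen (4OHT). Control cells received DMSO and senescent cells 100 nM 4OHT, and both were kept for 7 days. Each was then given DMSO, the NMT inhibitor IMP1088 at 300 nM or the NMT inhibitor DDD86481 at 1.5 µM for 3 days and collected on day 10, which made 6 groups of 3 libraries. Every senescent library received 4OHT and no control library did, so the agent and RAS activation cannot be told apart.

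Colony stimulating factors are secreted proteins that direct the survival, growth and activation of myeloid cells. CSF1, or M-CSF, sustains macrophages through the receptor CSF1R and is made constitutively by fibroblasts. CSF2, or GM-CSF, acts on macrophages, granulocytes and dendritic cells through CSF2RA and CSF2RB, and CSF3, or G-CSF, drives neutrophil production through CSF3R. Both are typical products of fibroblasts exposed to inflammatory signals, and the senescence-associated secretory phenotype is known to include them.

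Library totals ran from 16143716 to 23189950 counts. Levels are given in CPM, the read count scaled to a common library size with TMM factors, as mean ± SD of n = 3 libraries. A count of 0 allows up to 3 counts, which is taken as the floor of a library and came to between 0.121 and 0.187 CPM. The 10 fibroblast markers, COL1A1 and PDGFRA among them, were all above 1 CPM in every library, with a summed level from 24800 to 36300 CPM in control and from 11600 to 17100 CPM in senescent libraries. None of the 8 leukocyte markers was above 1 CPM in every library, and their sum stayed between 0.313 and 0.874 CPM. Of these leukocyte genes 5 did not exceed the floor in any control library and 6 did not in any senescent library. Summed markers ran from 7.11 to 41.3 CPM for the 6 epithelial genes. For the 5 endothelial genes they ran from 31.9 to 55.4 CPM in control and from 14.0 to 44.7 CPM in senescent libraries. Of these endothelial genes 1 was above 1 CPM in every control library and 4 were in every senescent library. Of the fibroblast genes 8 of 10 were lower in senescent DMSO cells and 1 was higher, and of the endothelial genes 4 of 5 were higher and 1 was lower. Over all genes tested, 36% were lower and 32.5% higher. The median log2 fold changes were -1.61 for the fibroblast and 3.73 for the endothelial genes, and their part in the results was not tested. Of 7 genes listed for senescence, 5 were higher in the 4OHT libraries with DMSO, namely CDKN1A, CDKN2A, CDKN2B, HRAS and ESR1. The other 2, LMNB1 and MKI67, were lower. HRAS and ESR1 are a RAS gene and the oestrogen receptor gene, the kinds joined in ER:RAS, so they are not separate marks of senescence. With IMP1088 and DDD86481 in senescent cells, 6 and 6 of the 10 fibroblast genes and 4 and 3 of the 5 endothelial genes were lower. So were 3 and 3 of the 7 listed for senescence, against 23.9% and 23.1% of all genes. Higher were 3 and 3 fibroblast, 0 and 0 endothelial and 1 and 1 senescence genes, against 20.6% and 20.1% of all genes. These shifts stand alongside the changes of the CSF genes given below, and the markers' part was not tested there either. Between replicates, the chi-square of counts per gene ran from 5.26 to 20.9 in most pairs. It reached 104 and 52.3 for control DMSO replicate 3 against the others of its group and 27.9 for senescent DDD86481 replicates 1 and 3, so values without control DMSO replicate 3 or senescent DDD86481 replicate 1 are given where they bear on a result. In bulk RNA, fewer cells that make a transcript and less RNA per cell cannot be told apart.

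AU-rich elements, runs of the pentamer ATTTA in the 3′ untranslated region, mark many cytokine mRNAs for decay. In the MANE transcripts of the GENCODE annotation on GRCh37, CSF2 held 8 ATTTA pentamers in a 3′ untranslated region of 318 bases, or 25.2 per kb, a density that 0.0544% of 12864 genes reached. CSF3 held 7 in 854 bases, or 8.2 per kb, reached by 1.83% of genes, and CSF1 held 4 in 2154 bases, or 1.86 per kb, reached by 47.8%. The nonamer TTATTTATT occurred 3 times in CSF2 and not in CSF1 or CSF3, and 9.64% of genes held at least 1. The richest stretches are shown because they set CSF2 and CSF3 apart in layout, with ATTTA in capitals.
CSF2, chr5:131411765-131411794, plus strand: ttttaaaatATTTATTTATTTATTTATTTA
CSF3, chr17:38173228-38173257, plus strand: tcccatgtATTTAtctctATTTAatATTTA
In CSF2 the pentamers follow each other without a gap, with each sharing its last base with the next, whereas in CSF3 they stand apart.

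A promoter sequence from RefSeq matched 1 of the 3 genes, CSF2. The 250 bases before its start on GRCh38.p14, chr5:132073539-132073788, plus strand, are shown because this gene was silent in one state and abundant in the other. Capitals mark GAGATTCC, the core of the CK-1 element known from cytokine promoters.
CSF2 promoter: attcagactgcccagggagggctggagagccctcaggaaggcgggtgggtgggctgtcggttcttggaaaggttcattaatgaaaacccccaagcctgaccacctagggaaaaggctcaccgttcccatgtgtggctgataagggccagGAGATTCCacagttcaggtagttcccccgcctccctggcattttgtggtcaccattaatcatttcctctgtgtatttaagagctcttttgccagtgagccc
Motifs were searched from 250 bases before the start to 50 bases after it, here and in 35116 promoters of the same length. The core began at base -101 relative to the start, and 0.869% of these promoters held it on either strand. No match on either strand was found for the degenerate kappa B consensus, held by 11.3% of promoters, for the AP-1 letters TGANTCA, held by 7.71%, for the C/EBP letters TTNNGNAA, held by 36.8%, or for TATAAA, held by 11.5%. A match or its absence describes these letters in the window searched, which runs 50 bases past the stretch shown.

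To see how senescence altered each factor, senescent and control cells with DMSO were compared. CSF1 was expressed in both states and fell in senescence, while CSF2 and CSF3 went from at or under the floor to among the more abundant transcripts. CSF1 had 60.9, 52.5 and 50.5 CPM in the control DMSO libraries and 19.0, 21.3 and 21.2 CPM in the senescent DMSO libraries. The 2 groups did not overlap, with means of 54.6 ± 5.54 and 20.5 ± 1.33 CPM. The log2 fold change was -1.41 ± 0.135 (SE), or 0.375-fold, with an adjusted p of 1.06e-08 by edgeR's quasi-likelihood test.

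CSF2 had 0, 3 and 2 counts in the control DMSO libraries, all at or under the floor. In the senescent DMSO libraries it had 4598, 3886 and 4709 counts, or 284, 242 and 259 CPM. The senescent mean of CSF2 was 1752-fold the highest control floor (adjusted p = 3.66e-18 for senescent against control). CSF3 had 0, 0 and 2 counts in control DMSO and 4020, 4141 and 5444 counts, or 248, 258 and 299 CPM, in senescent DMSO libraries. Its senescent mean was 1798-fold the highest control floor (adjusted p = 8.24e-20). Neither gene's groups overlapped, and both transcripts stayed at or under the floor in every control DMSO library. Among all 14341 genes tested, 32.5% were called higher and 36% lower in senescence, beside which 2 higher and 1 lower among the 3 factors are to be read. With upper quartile scaling the all-gene median shifted by a log2 value of -0.155 in this comparison and by -0.103 and -0.106 in those under IMP1088 and DDD86481, and all 3 factors kept their calls. Without control DMSO replicate 3, CSF1 fell by 1.47 on the log2 scale (adjusted p = 2.55e-09). The senescent means of CSF2 and CSF3 were then 2162-fold and 2219-fold the highest control floor (2.14e-19 and 2.36e-21). Control DMSO replicate 3 had the highest floor of its group, at 0.149 CPM, and the folds are set against the highest floor.

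**Figure D1:**
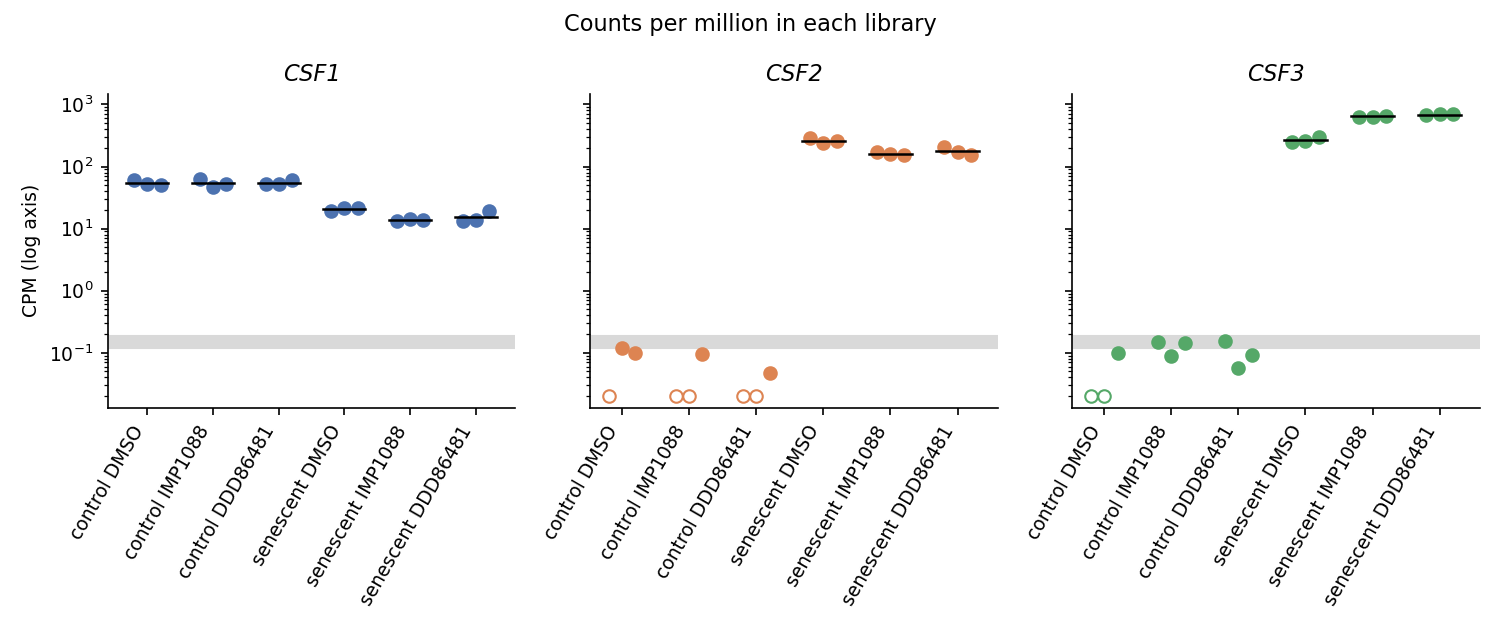
CPM (log axis) of CSF1, CSF2 and CSF3 in each of the 18 libraries, by group. Filled points are libraries, open points libraries with 0 counts drawn at the bottom, lines the mean of groups above the floor, and the grey band the floor of 3 counts. CSF2 and CSF3 lay no higher than the floor in all 9 control libraries and at or above 151 CPM in all 9 senescent libraries, while CSF1 was lower in every senescent library than in any control library.

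The same contrast was made with each inhibitor present. With IMP1088, CSF1 fell by 1.98 ± 0.138 on the log2 scale in senescent against control cells (adjusted p = 7.82e-11). The senescent means of CSF2 and CSF3 were 1065-fold and 4263-fold the highest control floor (7.27e-18 and 2.6e-20). Here 36.2% of all genes were called higher and 37.9% lower. With DDD86481, CSF1 fell by 1.85 ± 0.138 (adjusted p = 2.2e-10), where 36.1% of all genes were called higher and 37.9% lower. The senescent means of CSF2 and CSF3 were 1046-fold and 4095-fold the highest control floor (7.35e-18 and 3.05e-20). CSF3 had 1 to 3 counts in the control libraries with an inhibitor, which allow more than the floor. All 3 factors were therefore called in the same direction with either inhibitor as with DMSO.

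NMT inhibition moved the RNA of the 3 factors in opposite directions in senescent cells, and secreted protein was not measured in these libraries. CSF3 rose, and CSF2 and CSF1 fell. CSF3 had 633, 634 and 658 CPM with IMP1088 and 674, 696 and 695 CPM with DDD86481, all above the highest senescent DMSO library at 299 CPM. The rise was 1.26 ± 0.105 on the log2 scale with IMP1088, a 2.39-fold increase (adjusted p = 1.25e-08, 95% interval 1.04 to 1.48), and 1.36 ± 0.105 with DDD86481, a 2.56-fold increase (5.98e-09, 1.14 to 1.58). By the size of the log2 fold change CSF3 ranked 590 and 453 of 14341 genes from the highest. With IMP1088, 20.6% of all genes were called higher and 23.9% lower, and with DDD86481, 20.1% and 23.1%.

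CSF2 had 168, 159 and 154 CPM with IMP1088 and 206, 170 and 151 CPM with DDD86481. All 6 libraries lay below the lowest senescent DMSO library at 242 CPM. CSF2 fell by 0.71 ± 0.132 on the log2 scale with IMP1088, to 0.613-fold (adjusted p = 0.000197, 95% interval -0.98 to -0.43), and by 0.57 ± 0.131 with DDD86481, to 0.672-fold (0.00141, -0.85 to -0.30). It still stood at or above 151 CPM in every senescent library. Without senescent DDD86481 replicate 1, the changes with DDD86481 were -0.70 for CSF2 (adjusted p = 0.000487) and 1.38 for CSF3 (5.13e-08).

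CSF1 had 13.3, 14.0 and 13.8 CPM with IMP1088, all below the 3 senescent DMSO libraries, and fell by 0.58 ± 0.141 (adjusted p = 0.00216, 95% interval -0.87 to -0.29). With DDD86481 it had 13.1, 13.5 and 19.3 CPM, and the highest of these overlapped the senescent DMSO libraries. CSF1 fell by 0.42 ± 0.14 with DDD86481 (adjusted p = 0.0188, 95% interval -0.72 to -0.13), a call that was lost in 4 of the 6 fits that left out 1 library, with an adjusted p up to 0.0997 without senescent DDD86481 replicate 1. Both inhibitor comparisons share the senescent DMSO libraries, so their values are not independent of each other.

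In control cells CSF1 was the one factor above the floor. It had 62.3, 47.1 and 52.8 CPM with IMP1088 and 51.8, 52.9 and 60.1 CPM with DDD86481, and both groups overlapped the control DMSO libraries. The log2 differences of -0.02 ± 0.128 with IMP1088 (adjusted p = 0.943, 95% interval -0.28 to 0.25) and 0.0081 ± 0.128 with DDD86481 (0.972, -0.26 to 0.28) did not pass the threshold, and the second was -0.05 under upper quartile scaling and without control DMSO replicate 3. Across all genes IMP1088 gave 16.3% higher and 17.4% lower calls in control cells, and DDD86481 17.8% and 18.7%. CSF2 had 0 to 2 counts and CSF3 1 to 3 counts in the 6 inhibitor-treated control libraries, all at or under the floor, so no fold change is given.

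Whether the CSF1 response differed between senescent and control cells was tested as an interaction, which CSF2 and CSF3 did not allow because of their control levels. With IMP1088 the change in senescent cells was lower than that in control cells by a log2 value of -0.56 ± 0.19 (adjusted p = 0.0341, 95% interval -0.96 to -0.17), where 26.2% of all genes were called. The call was lost in 9 of 12 fits without 1 library, with an adjusted p up to 0.134 without control IMP1088 replicate 1 and 0.0571 without control DMSO replicate 3. With DDD86481 the value of -0.43 ± 0.19 did not pass (adjusted p = 0.0898), where 30.3% of all genes were called, and it passed in 2 of 12 such fits, with an adjusted p of 0.00959 without senescent DDD86481 replicate 3 and 0.0367 without control DMSO replicate 1.

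**Figure D2:**
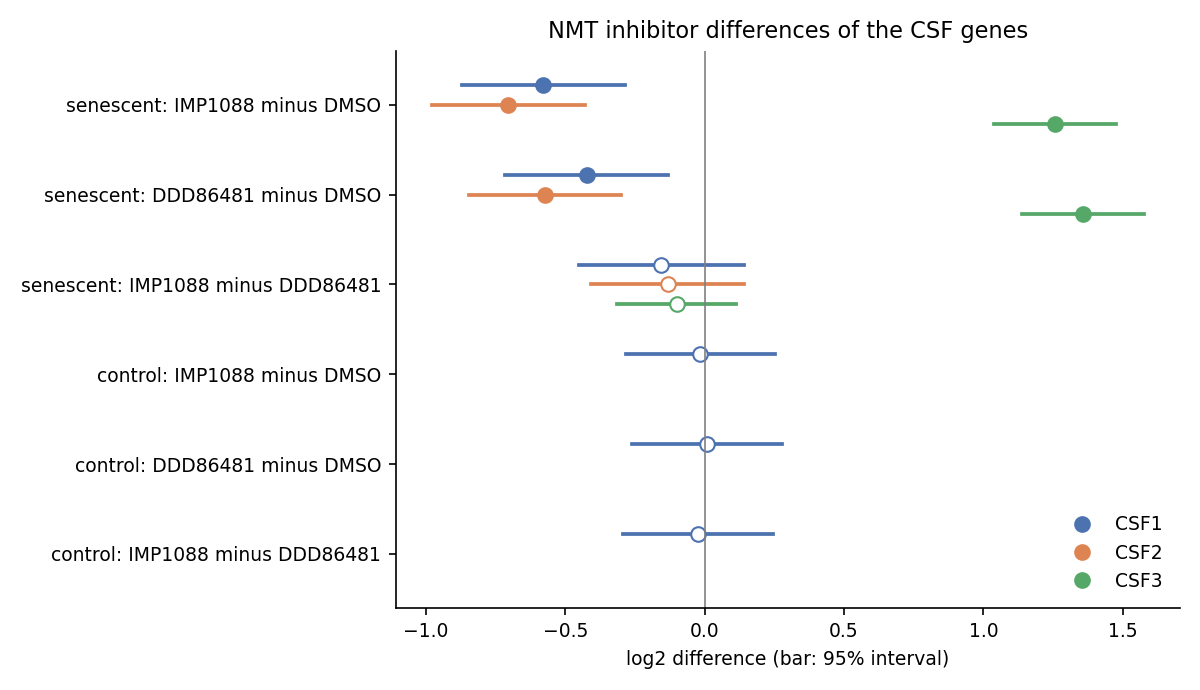
Log2 differences of CSF1, CSF2 and CSF3 between inhibitor groups and DMSO, and between the inhibitors, in senescent and control cells. Points are estimates, bars 95% intervals, and filled points passed an adjusted p of 0.05. In senescent cells CSF3 lies at 1.26 and 1.36 while CSF1 and CSF2 lie between -0.71 and -0.42, and every interval of IMP1088 against DDD86481 includes 0.

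The inhibitors, 2 compounds used at different doses of 300 nM and 1.5 µM, were set side by side in 4 member comparisons. In senescent cells IMP1088 minus DDD86481 was -0.10 ± 0.103 for CSF3 (95% interval -0.32 to 0.11), -0.13 ± 0.131 for CSF2 (-0.41 to 0.14) and -0.16 ± 0.142 for CSF1 (-0.45 to 0.14) on the log2 scale. In control cells the CSF1 difference was -0.02 ± 0.129 (-0.29 to 0.24). The adjusted p was 1 for each. Over all genes edgeR called 0 of 14341, or 0%, in either state, against 570 and 141 genes with an unadjusted p under 0.05 in senescent and control cells, and DESeq2 also called 0 and 0. These intervals leave room for differences of up to 0.45 in size and do not show that the compounds act alike.

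Because CSF3 and CSF2 moved apart, their balance was computed within each senescent library as the log2 ratio of CSF3 to CSF2 counts, a measure that library scaling does not touch. With DMSO the ratios were 0.874, 1.07 and 1.16. With IMP1088 they were 3.76, 3.99 and 4.28, and with DDD86481 3.27, 4.09 and 4.61. Every inhibitor library lay above every DMSO library. The log2 ratio averaged 0.04 ± 0.207 with DMSO, 2.00 ± 0.094 with IMP1088 and 1.98 ± 0.251 with DDD86481. The difference was 1.97 with IMP1088 and 1.95 with DDD86481, each with a two-sided exact permutation p of 0.1, the smallest that 3 libraries against 3 allow. For both inhibitors against DMSO it was 1.96, or 3.88-fold. The ratio restates the CSF3 and CSF2 changes above within libraries and is not independent of them.

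To compare the 3 genes with each other, CPM was divided by the length of the MANE transcript, 3994 bases for CSF1, 788 for CSF2 and 1504 for CSF3. In control DMSO cells CSF1 stood at 13.7 ± 1.39 CPM per kb and made up 99.1% of the summed CSF level per kb. In senescent DMSO cells CSF2 led at 332 ± 26.8 CPM per kb, followed by CSF3 at 178 ± 18 and CSF1 at 5.13 ± 0.332. With either inhibitor the order of the first 2 changed, to CSF3 at 427 ± 9.43 and CSF2 at 203 ± 9.48 with IMP1088, and to 458 ± 8.31 and 223 ± 35.5 with DDD86481. The libraries of CSF2 and CSF3 did not overlap in any of the 3 senescent groups.

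As shares of the summed level per kb, CSF2 made up 64.4% ± 3.24 and CSF3 34.6% ± 3.18 with DMSO. CSF3 made up 67.4% ± 1.40 with IMP1088 and 67% ± 3.72 with DDD86481, and CSF1 at most 1.10% of any senescent library. Taking all exonic bases of each gene as its length, which adds to CSF1 and CSF3, gave CSF3 26.5%, 58.4% and 58% in the 3 groups, so the order changed in the same groups. The summed level per kb rose from 13.8 ± 1.28 in control DMSO to 515 ± 27.5 in senescent DMSO, and stood at 634 ± 6.09 and 685 ± 27.1 with the inhibitors. Ranked by CPM per kb among 12866 genes, CSF2 went from place 219 with DMSO to 361 and 327 with IMP1088 and DDD86481, and CSF3 from 423 to 151 and 143. CSF1 was at place 4391 in control DMSO and at 7292, 8118 and 7883 in the senescent groups.

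**Figure D3:**
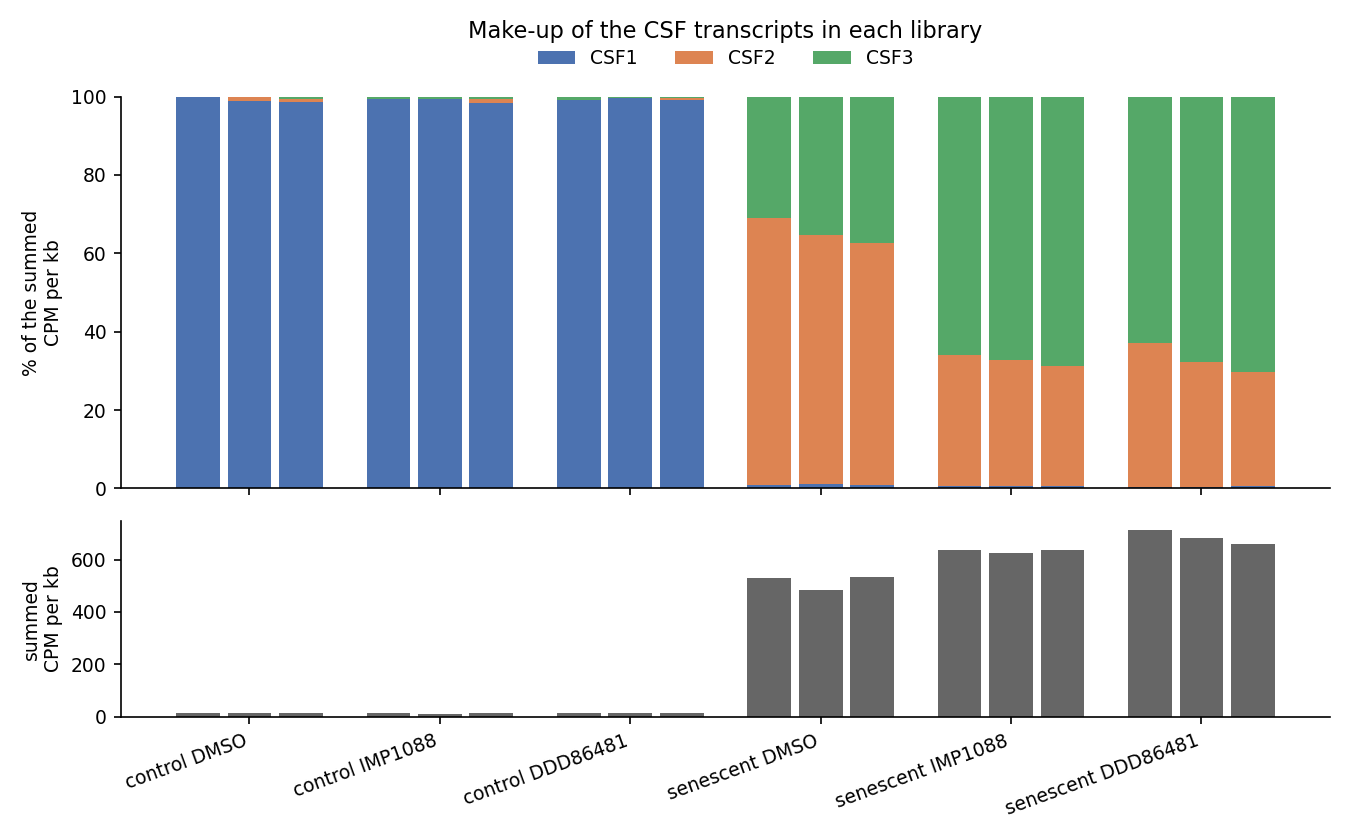
Share of CSF1, CSF2 and CSF3 in their summed CPM per kb of transcript (top, %) and that sum (bottom, CPM per kb) in each library, with 3 bars a group for replicates 1 to 3. Control libraries held 98.4% to 100.0% CSF1, senescent DMSO libraries 61.7% to 68.0% CSF2, and senescent inhibitor libraries 62.9% to 70.2% CSF3.

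By level, then, the groups order differently for each factor. For CSF1 the 3 control groups overlapped and stood highest, followed by senescent DMSO, and the senescent inhibitor groups overlapped each other at 15.3 ± 3.47 with DDD86481 and 13.7 ± 0.365 CPM with IMP1088. For CSF2 senescent DMSO stood highest at 261 ± 21.1 CPM, and DDD86481 at 176 ± 28 and IMP1088 at 160 ± 7.47 overlapped. For CSF3 the order was DDD86481 at 688 ± 12.5, IMP1088 at 642 ± 14.2 and DMSO at 268 ± 27.1 CPM. The CSF3 libraries of the 2 inhibitors did not overlap, though their difference did not pass the test above.

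The factors' receptors were at or near the floor. CSF2RA and CSF2RB, the receptor chains for GM-CSF, had at most 3 counts in any library. CSF3R, the G-CSF receptor, had 0 to 1 count in every group but control IMP1088, where it reached 6. None of these 3 passed the filter on low counts. CSF1R, the receptor of CSF1, had 4, 1 and 0 counts in control DMSO and 14, 17 and 16 counts in senescent DMSO libraries. It rose by a log2 value of 3.59 ± 0.738 (adjusted p = 0.000228) yet reached only 0.934 ± 0.108 CPM. With IMP1088 CSF1R had 13, 6 and 4 counts (log2 fold change -1.14 ± 0.559, adjusted p = 0.104), and with DDD86481 it had 1, 13 and 4 (-1.47 ± 0.586, 0.049), a call that was lost under DESeq2 (adjusted p = 0.0756) and in 5 of 6 fits without 1 library, up to 0.198 without senescent DDD86481 replicate 1.

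IL34, the other known ligand of CSF1R, was lower in senescence along with CSF1. It had 4.59, 7.76 and 5.87 CPM in control DMSO libraries against 4, 3 and 5 counts, or 0.236 ± 0.045 CPM, in senescent DMSO libraries, a log2 fold change of -4.64 ± 0.304 (adjusted p = 3e-11). With IMP1088 or DDD86481 every senescent library had 0 or 1 count of IL34, below the floor. Among control groups it had 7.94 ± 0.401 CPM with IMP1088 and 7.52 ± 0.468 with DDD86481, and neither passed the test against DMSO (adjusted p = 0.105 and 0.195).

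Of 8 other haematopoietic growth factors, IL3, IL5, THPO and EPO did not pass the filter, and IL3, whose gene lies 10.6 kb before CSF2 on GRCh37, had no count in any library. KITLG, the stem cell factor, rose in senescent DMSO cells from 112 to 296 CPM by a log2 value of 1.41 ± 0.142 (adjusted p = 2.53e-08). It fell by 1.49 ± 0.143 with IMP1088 (7.62e-08) and by 1.22 ± 0.142 with DDD86481 (9.83e-07) in senescent cells. FLT3LG, a growth factor for dendritic cell precursors, fell by 2.13 ± 0.192 in senescence (4.84e-09) and rose by 0.93 ± 0.209 and 0.86 ± 0.21 with the inhibitors (0.00115 and 0.0024). IL7, a lymphocyte growth factor, was called lower in senescence with every senescent DMSO library at or under the floor, and TSLP did not pass. In control cells none of the 4 tested passed with either inhibitor. Across all genes, 16.3% were called higher and 17.4% lower in control cells with IMP1088, and 17.8% and 18.7% with DDD86481.

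Transcription factors known to act on CSF genes were read next, and 19 of the 20 listed were tested, SPI1 being too low. In senescent DMSO cells 11 were higher and 5 lower, or 57.9% and 26.3% of the 19 against 32.5% and 36% of all genes, with a median log2 fold change of 0.66 against -0.05 over all genes. ETS1, known to act on the CSF2 promoter, rose by 1.94 ± 0.101 (adjusted p = 7.72e-13) and NFKBIZ, a co-factor of NF-kappaB, by 1.90 ± 0.189 (2.05e-08). CEBPD fell by 1.47 ± 0.156 (5.55e-08) and FOS, a part of AP-1, by 1.46 ± 0.508 (0.015), the FOS call being lost without senescent DMSO replicate 3 (0.0671). With IMP1088 in senescent cells 5 were higher and 6 lower (26.3% and 31.6% against 20.6% and 23.9% of all genes), and with DDD86481 5 and 5 (26.3% each against 20.1% and 23.1%). FOS rose by 1.72 ± 0.51 (0.00923) and 2.47 ± 0.501 (0.000473), while NFATC2 fell by 1.10 ± 0.235 (0.000718) and 1.02 ± 0.234 (0.0014), and ETS1 by 0.84 ± 0.0981 (9.4e-07) and 0.66 ± 0.0978 (1.76e-05). CEBPA, a myeloid factor, was also called higher with both, from at most the floor in the senescent DMSO libraries to a mean of 0.362 and 0.485 CPM. In control cells, where CSF2 and CSF3 stayed at the floor, IMP1088 raised 8 and lowered 1 (42.1% and 5.26% against 16.3% and 17.4% of all genes), while DDD86481 raised 11 and lowered 1 (57.9% and 5.26% against 17.8% and 18.7%). There FOS rose by 2.65 ± 0.442 and 2.69 ± 0.443 (0.000118 and 0.000102), CEBPA by 1.54 ± 0.375 and 1.47 ± 0.382 (0.00351 and 0.00533), and FOSL1 fell by 0.91 ± 0.155 and 0.95 ± 0.156 (0.000151 and 0.000102).

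All 13 genes listed for AU-rich element binding and cytokine mRNA decay were tested, of which 4 were higher and 6 lower in senescent DMSO cells (median -0.16), or 30.8% and 46.2% against 32.5% and 36% of all genes. ZC3H12A, the endonuclease Regnase-1, rose by 4.15 ± 0.182 (adjusted p = 4.63e-14) and ZFP36L1 by 0.92 ± 0.136 (4.93e-06). ZFP36L2 fell by 3.32 ± 0.11 (4.92e-16) and ZFP36, or tristetraprolin, by 1.48 ± 0.211 (3.27e-06). In senescent cells IMP1088 raised 2 and lowered 2 (15.4% each against 20.6% and 23.9% of all genes), and DDD86481 raised 4 and lowered 2 (30.8% and 15.4% against 20.1% and 23.1%). ZFP36 rose by 0.73 ± 0.215 (0.00855) and 0.83 ± 0.215 (0.00364), and TIAL1, a translational repressor, by 0.38 ± 0.094 (0.00236) and 0.34 ± 0.094 (0.0062), the latter call lost without senescent DDD86481 replicate 2 (0.0593). ZFP36L1 fell by 0.61 ± 0.135 (0.00108) and 0.82 ± 0.136 (6.16e-05), and TIA1, a related repressor, by 0.37 ± 0.13 (0.0248) and 0.41 ± 0.13 (0.0143), with calls lost in 4 and 3 fits without 1 library. In control cells 3 and 6 were higher (23.1% and 46.2% against 16.3% and 17.8% of all genes) and 0 lower, and ZFP36L1 rose there, by 1.02 ± 0.136 with each inhibitor (1.09e-05 and 1.04e-05), beside ZFP36 at 1.28 ± 0.195 (4.55e-05) and 1.26 ± 0.195 (5.06e-05).

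**Figure D4:**
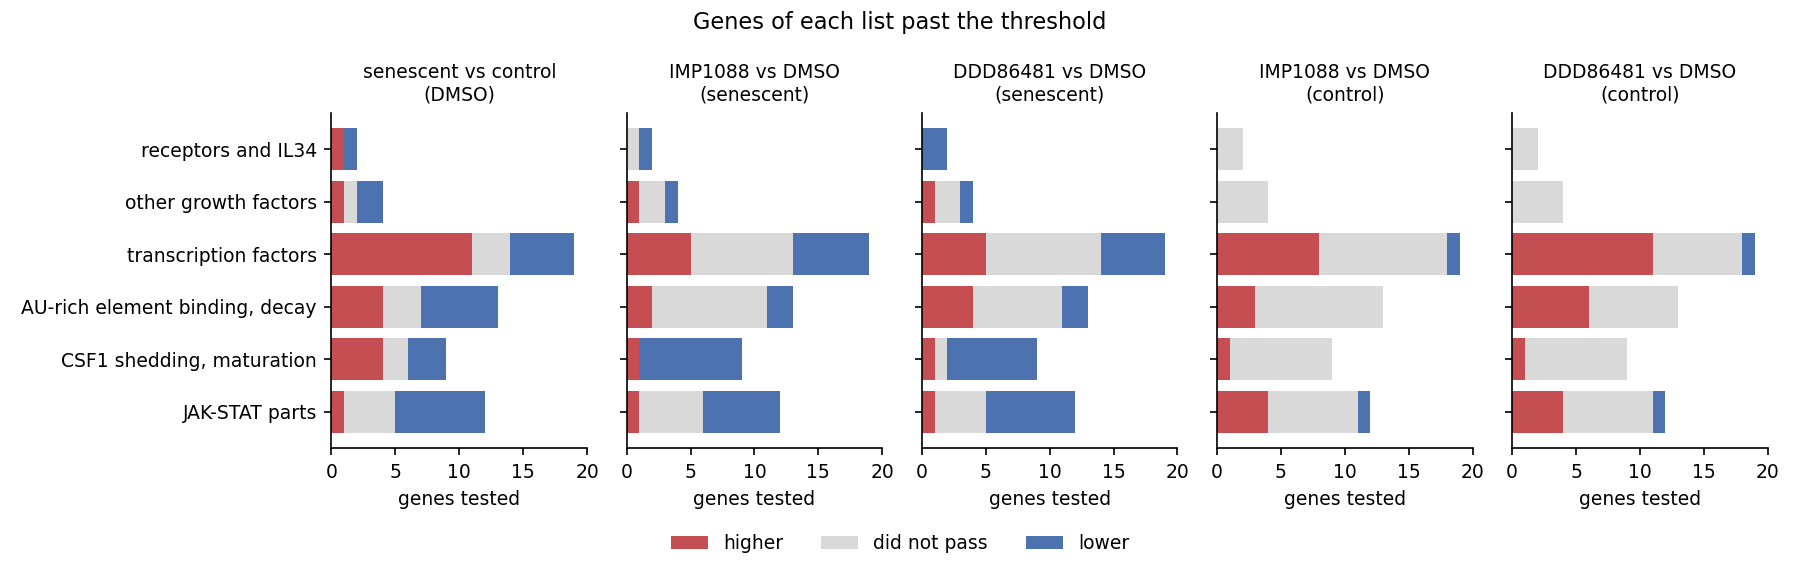
Number of genes tested in each of 6 lists (horizontal axis) that were higher (red), lower (blue) or did not pass an adjusted p of 0.05 (grey) in 5 comparisons. The list for shedding and maturation of CSF1 had 8 and 7 of 9 genes lower with the inhibitors in senescent cells, against 23.9% and 23.1% of all genes. It had 0 lower in control cells, against 17.4% and 18.7% of all genes. The transcription factor list had 11 of 19 genes higher in senescence, against 32.5% of all genes.

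The genes that process membrane-bound CSF1 were taken as a list of 9, all tested. In senescent DMSO cells 4 were higher and 3 lower (44.4% and 33.3% against 32.5% and 36% of all genes). RHBDF2 and RHBDF1, the iRhom partners of the sheddase ADAM17, rose by 3.14 ± 0.135 (adjusted p = 3.47e-14) and 2.21 ± 0.106 (1.82e-13), while CHSY1, a chondroitin synthase, fell by 0.68 ± 0.111 (1.69e-05) and ADAM10 by 0.57 ± 0.0889 (9.15e-06). With IMP1088 in senescent cells 8 of 9 were lower and 1 higher, or 88.9% lower against 23.9% of all genes, with a median of -0.55 against -0.04. With DDD86481 7 were lower and 1 higher, or 77.8% lower against 23.1% of all genes (median -0.59). XYLT2, which starts the glycan chain of proteoglycans, fell by 0.75 ± 0.0809 (3.54e-07) and 0.78 ± 0.0809 (2.6e-07). The next largest fall was that of the protease gene FURIN with IMP1088, by 0.72 ± 0.0965 (5.19e-06). With DDD86481 it was that of XYLT1, by 0.68 ± 0.217 (0.0151), a call lost in 3 fits without 1 library. XYLT1 was also called lower with IMP1088. ADAM17 itself rose, by 0.62 ± 0.0963 (2.76e-05) and 0.78 ± 0.0963 (2.16e-06) in senescent cells and by 0.67 ± 0.0945 (1.82e-05) and 0.70 ± 0.0946 (1.2e-05) in control cells. It was the 1 gene of the 9 called in control cells, or 11.1% higher and 0% lower. Of all genes, 16.3% were called higher and 17.4% lower there with IMP1088, and 17.8% and 18.7% with DDD86481.

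Downstream of the receptors, 12 of 13 JAK-STAT genes were tested, PTPN6 being too low. In senescent DMSO cells 1 was higher, TYK2 at 0.79 ± 0.113 (adjusted p = 3.63e-06), and 7 were lower (median -0.40), or 58.3% lower against 36% of all genes. SOCS1, a feedback inhibitor of cytokine receptors, fell by 3.12 ± 0.149 (1.71e-13) and the kinase gene PIM1, a target of STAT5, by 2.58 ± 0.144 (2.21e-12). With IMP1088 in senescent cells 1 was higher and 6 lower, and with DDD86481 1 and 7 (medians -0.32 and -0.32), or 50% and 58.3% lower against 23.9% and 23.1% of all genes. PIM1 rose by 1.67 ± 0.143 (1.85e-08) and 1.55 ± 0.144 (5.73e-08), whereas SOCS2 fell by 1.73 ± 0.166 (7.62e-08) and 1.86 ± 0.168 (4.15e-08) and SOCS1 by 1.30 ± 0.182 (8.78e-06) and 1.19 ± 0.181 (2.41e-05). In control cells 4 were higher and 1 lower with each inhibitor, or 33.3% higher against 16.3% and 17.8% of all genes. CISH rose there by 0.71 ± 0.197 (0.00912) and 0.65 ± 0.198 (0.0143), JAK1 by 0.43 ± 0.129 (0.0152) and 0.46 ± 0.129 (0.00934), and the feedback gene SOCS2 fell by 0.88 ± 0.159 (0.000263) and 0.92 ± 0.16 (0.000181). In a fit of only the groups compared JAK1 lost both calls (adjusted p = 0.117 and 0.0887) and CISH the call with DDD86481 (0.0615). Without 1 library, JAK1 lost the call with IMP1088 in 2 fits, and CISH lost its calls in 1 and 2 fits, up to 0.0537 with IMP1088 and 0.0951 with DDD86481.

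The 3 genes lie on different chromosomes, and their nearest neighbours with a row in the table were read for comparison. On GRCh37 CSF1 spans bases 110452864 to 110473614 of chromosome 1, CSF2 bases 131409482 to 131411863 of chromosome 5 and CSF3 bases 38171614 to 38174066 of chromosome 17, all on the plus strand, and 0% of the exonic bases of each overlap another gene. Beside CSF2, ACSL6 and P4HA2-AS1 had at most 10 counts in any library. P4HA2, a collagen prolyl hydroxylase gene 114.0 kb beyond CSF2, rose in senescence from 99.2 ± 2.25 to 434 ± 7.40 CPM, by 2.13 ± 0.0825 on the log2 scale (adjusted p = 7.14e-15). In senescent cells P4HA2 had differences of -0.17 ± 0.0789 with IMP1088 (0.0864, and 0.0242 under DESeq2) and -0.13 ± 0.0789 with DDD86481 (0.207). Beside CSF3, the mediator gene MED24, 1.3 kb away, rose by 0.55 ± 0.0968 (3.89e-05) and the proteasome gene PSMD3, 17.4 kb away, by 1.01 ± 0.0903 (4.32e-09) in senescence. Neither passed in senescent cells with IMP1088 (-0.05 ± 0.0964 and 0.07 ± 0.0892, adjusted p = 0.692 and 0.547) or with DDD86481 (-0.05 ± 0.0965 and -0.02 ± 0.0893, 0.707 and 0.88), where CSF3 rose. GSDMA and SNORD124 had at most 2 counts.

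Beside CSF1, GSTM5 fell in senescence by 2.00 ± 0.258 (adjusted p = 8.9e-07), as CSF1 did, AHCYL1 rose by 0.72 ± 0.0806 (1.22e-07), and EPS8L3 had at most 1 count. In senescent cells AHCYL1 fell by 0.22 ± 0.0802 with IMP1088 (0.0303) and by 0.29 ± 0.0803 with DDD86481 (0.00574), the first call lost with no filter on low counts (0.0928) and in 6 fits without 1 library. The values of GSTM5 were 0.17 ± 0.305 (0.69) and -0.07 ± 0.315 (0.875).

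Genes whose pattern was most like each factor were ranked by Pearson's r of log2 CPM. Over the 18 libraries, which mostly separates senescent from control cells, CSF1 was most like MARVELD1 (r = 0.992), CDH11, RNF150, SLIT2 and PDGFD, the last down to r = 0.990. CSF2 was most like CST4 (0.998), DHRS7, its neighbour P4HA2, SERPINB4 and IL1B (0.997), and CSF3 like MMP3 (0.998), AADACP1, ENO2, CXCL8 and PLEKHB2 (0.996). IL1B, the inflammatory cytokine, went from 1.48 CPM in control DMSO to 6640 in senescent DMSO and 5320 and 5180 with the inhibitors, while CXCL8, the neutrophil chemokine, went from 23.8 to 6990, 9070 and 9940 CPM.

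Over the 9 senescent libraries, which share the split into DMSO and inhibitor groups, the leading genes differed. CSF3 was most like CPZ (r = 0.996), DENND11, the ferritin heavy chain gene FTH1, CYB561D2 and NAT9 (0.993). FTH1 had 2660 CPM with DMSO and 4830 and 4960 with the inhibitors. CSF2 was most like the survival gene MCL1 (0.989), MSRB2, SLC2A4RG, LAPTM4B and STMN1 (0.980), and MCL1 had 1240, 745 and 829 CPM. CSF1 was most like SRCAP (0.986), EPB41L3, CHST3, NCKAP5L and ASXL1 (0.971). No p is given, since libraries of a group share their treatment.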

How the data were processed

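Poly(A) RNA of 18 libraries was analysed from 1 table of raw counts per gene symbol that the authors deposited, with groups taken from the labels (the DDD86481 columns are named PCLX001). The submitters' processing notes name hg38, DRAGEN, STAR 2.7.8a and DESeq2 1.32.0, whereas the study's methods name hg19 and TopHat, with stranded alignment, and list HTSeq. The strand setting of the counter is not given in the sources used here. GRCh37 positions (GENCODE 44) and GRCh38 promoters serve as annotation only, and reads from overlapping genes cannot be assigned with certainty. RefSeq symbols matched 26986 rows. Of 28266 rows, 6836 held no count, and filterByExpr kept 14341 genes with 99.962% of counts.

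edgeR 4.0.16 (quasi-likelihood test, R 4.3.3) was run on TMM-scaled counts in 1 fit of the 6 groups, with Benjamini-Hochberg adjustment over the genes of each comparison and a threshold of 0.05. Standard errors came from the F statistic. Where a group was at or under 3 counts in every library, the fold is set against its floor. It is the mean of the other group over the highest floor of that group. Counts of 1 to 3 allow more than 3, so such a fold is not a strict lower limit. Floors cover counting error only, and only that of a count of 0, as there were no molecular identifiers. The log2 ratio of CSF3 to CSF2 used a pseudocount of 0.5 and exact permutation tests (SciPy 1.17.1). Likeness used log2 CPM with a prior count of 2. Named were the 3 genes, the receptors and IL34, up to 2 rises and 2 falls of each other list and comparison, 2 neighbours a side and the 5 most alike genes. One item under this rule is not reported here. No table column was without a sample. The members and lists were chosen with earlier results of these data known.

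The test was checked on simulated counts with known changes. The labels do not say that replicates are separate cultures, so p-values measure the spread between these libraries, which may be technical. Replicates differed by more than sampling noise (chi-square from 5.26 to 104 per gene). Libraries with the same number deviated together, with every r above 0.1, for control IMP1088 with control DMSO (0.394, 0.123 and 0.231), senescent IMP1088 with senescent DDD86481 (0.117, 0.126 and 0.119) and control IMP1088 with control DDD86481 (0.101, 0.27 and 0.129), which pairs these groups by the data alone. The reported fit has no block, and the replicate block is an alternative. Alternatives were DESeq2 1.42.0, upper quartile scaling, no filter, a fit of only the groups compared, a replicate block and leaving out each library. Shares with all exonic bases as length were added after seeing the data.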

Additional observations from a re-analysis of the deposited data

Results flagged for a closer look

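The change with an inhibitor differed between senescent and control cells, by the interaction test of edgeR with an adjusted p under 0.05, for the results below, each given as the senescent log2 change less the control log2 change. CSF1 had -0.56 with IMP1088, a call that 9 of 12 fits without 1 library lost. Among growth factors KITLG had -1.54 with IMP1088 and -1.30 with DDD86481, and FLT3LG 0.86 and 0.84, each lost in 3 fits without 1 library (adjusted p up to 0.0589 and 0.0769). Among transcription factors ETS1 had -0.91 and -0.83, and NFATC2 -1.17 and -1.12, lost in 3 and 5 such fits (up to 0.0631 and 0.0911). Among decay genes ZFP36L1 had -1.62 and -1.84, rising in control and falling in senescent cells, and TIAL1 had 0.40 and 0.36, both lost with no filter on low counts (0.061 and 0.11) and in 4 and 8 fits without 1 library, and the second also in a fit of only the groups compared (0.0745) and under the replicate block (0.0541). Among genes that process CSF1, XYLT2 had -0.63 and -0.66 and FURIN -0.48 and -0.53. Among JAK-STAT genes PIM1 had 1.68 and 1.61, SOCS2 -0.85 and -0.94, SOCS1 -1.29 and -1.04, and JAK1 -0.74 and -0.79. Of the neighbours, GSTM5 had 1.18 with IMP1088, where it fell by 1.01 ± 0.226 in control cells (adjusted p = 0.00178). That interaction was lost in 4 fits without 1 library, with 0.78 and an adjusted p of 0.151 without senescent IMP1088 replicate 1. AHCYL1 had -0.38 with DDD86481, a call lost in a fit of only the groups compared (adjusted p = 0.089), with no filter (0.0506) and without control DDD86481 replicate 3 (0.0848).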

How the results depend on the processing

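The 23 results of CSF1, CSF2 and CSF3 kept their side of the threshold under DESeq2, upper quartile scaling, no filter, a fit of only the groups compared and the replicate block. Their direction also held, except that CSF1 in control cells with DDD86481, at 0.0081, was -0.05 under upper quartile scaling. Under the replicate block, CSF1 in senescent cells with DDD86481 changed by -0.43 on the log2 scale (adjusted p = 0.0186), and 3 of 149 results on other named genes changed side. Over every alternative 30 of the 149 changed side at least once, 13 of them under one other than leaving out a library, and none that was called reversed. Leaving out 1 library, the CSF1 interaction with IMP1088 ran from -0.65 to -0.41 and was lost in 9 of 12 fits, that with DDD86481 ran from -0.63 to -0.32 and passed in 2 of 12, and CSF1 in senescent cells with DDD86481 ran from -0.62 to -0.32 and was lost in 4 of 6. The difference in the log2 ratio of CSF3 to CSF2, both inhibitors minus DMSO, ran from 1.84 to 2.04 on leaving out 1 library. A fit of only the groups compared called 2716 genes for IMP1088 and 2842 for DDD86481 in control cells, against 4829 and 5242 in the fit of all libraries, with fewer libraries behind the spread. With no filter 1 gene was called between the inhibitors in senescent cells. With all exonic bases as length, chosen after seeing the data, 7 of 18 shares moved beyond their SD. With a prior count of 0.5 the gene most like a factor changed in 2 of 6 rankings, those of CSF2 and CSF3 over the 18 libraries. There 2 of the 5 most alike genes were kept for each, against 4 for CSF1. Over the 9 senescent libraries all 5 were kept for every factor. Counts of 0 to 3 limit CSF2 and CSF3 in control cells.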
